A study of Mus musculus with 18 samples.

Results

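Among the fibroblasts of mouse dorsal dermis, 2003 cells carried Krtdap, Dmkn and Sbsn together, a set of genes better known from the cornified layers of the epidermis. Single-cell RNA-seq was done on the dermis of young adult, male, wild-type C57BL/6J mice with resting (telogen) skin, kept in a 12:12 light-dark cycle, and no mouse carried a mutation or received a drug. Skin was collected every 4 hours for 72 hours, which gave 18 libraries at 6 zeitgeber times (ZT, hours after lights on; ZT2, ZT6, ZT10, ZT14, ZT18 and ZT22) with 3 libraries each, numbered by day of collection. The dermis was digested with collagenase and live cells were sorted before droplet capture, so cells that are lost in digestion or in the sort are not represented. The libraries held between 318 and 2322 barcodes and between 4850221 and 40827442 unique molecular identifiers (UMIs, counted RNA molecules).

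The cells were chosen by a rule on their own UMI counts, fixed from earlier results on these libraries. A barcode had to have 850 to 7800 detected genes and under 13% mitochondrial UMIs, and to pass a fibroblast gate (at least 20 UMIs of Col1a1, Col1a2 and Col3a1 summed, at least 1 of Pdgfra, 0 of Ptprc, at most 2 of Krt5 and Krt14 summed). Of 23990 barcodes, 16877 passed the quality filter and 12119 passed the fibroblast gate. The 2003 cells in which Krtdap, Dmkn and Sbsn each had at least 2 UMIs, 16.5% of the fibroblasts, are called members, and the remaining 10116 are called the other fibroblasts. Because these 3 genes and the genes of the fibroblast gate selected the cells, their levels between members and other fibroblasts are given as a description and were not tested.

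Krtdap (keratinocyte differentiation-associated protein), Dmkn (dermokine) and Sbsn (suprabasin) encode secreted proteins of the stratified epithelium secretome complex. In the epidermis these proteins are made by suprabasal keratinocytes as the cells mature. Dermal fibroblasts build and remodel the collagenous matrix and fall into layers, from the papillary dermis under the epidermis through the reticular dermis to the loose fascia, whose fibroblasts share genes such as Pi16, Dpp4 and Cd248 with the adventitia of vessels. Skin fibroblasts also run a circadian clock, in which BMAL1 (Arntl) and CLOCK drive Per, Cry and Nr1d genes whose products feed back on them.

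The 3 genes lie side by side on the plus strand of mouse chromosome 7 (GRCm38, GENCODE vM21), Sbsn (ENSMUSG00000046056) at 30751471 to 30756134, Dmkn (ENSMUSG00000060962) at 30763756 to 30781063 and Krtdap (ENSMUSG00000074199) at 30787896 to 30791097. The gaps between them are 7621 bp and 6832 bp, and the whole span is 39627 bp. Their RefSeq promoter windows (GRCm38.p6, plus strand, 250 bases before to 50 after the transcript start) are printed here because the 3 genes were detected together in the same cells, with capitals for the pattern TGANTCA, the core of the AP-1 site, and for TATAAA.

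Sbsn, chr7:30751221-30751520: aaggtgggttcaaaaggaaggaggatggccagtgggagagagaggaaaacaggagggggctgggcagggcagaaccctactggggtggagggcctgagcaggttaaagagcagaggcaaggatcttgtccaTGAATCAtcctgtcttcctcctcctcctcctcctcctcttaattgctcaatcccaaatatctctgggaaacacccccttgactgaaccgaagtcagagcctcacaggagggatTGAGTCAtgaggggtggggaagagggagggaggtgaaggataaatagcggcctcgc

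Dmkn, chr7:30763506-30763805: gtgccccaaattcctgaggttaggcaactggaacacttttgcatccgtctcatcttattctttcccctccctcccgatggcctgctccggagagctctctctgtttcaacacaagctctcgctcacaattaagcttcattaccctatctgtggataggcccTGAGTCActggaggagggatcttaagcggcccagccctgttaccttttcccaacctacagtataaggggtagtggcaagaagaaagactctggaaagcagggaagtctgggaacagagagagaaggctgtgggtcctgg

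Krtdap, chr7:30787655-30787954: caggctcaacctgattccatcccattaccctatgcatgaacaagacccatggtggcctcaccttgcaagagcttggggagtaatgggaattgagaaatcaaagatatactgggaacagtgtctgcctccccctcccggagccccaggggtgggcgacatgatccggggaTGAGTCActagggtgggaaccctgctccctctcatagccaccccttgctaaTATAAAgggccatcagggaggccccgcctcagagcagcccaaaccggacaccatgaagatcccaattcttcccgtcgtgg

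TGANTCA occurred in each window, starting 6 and 119 bases before the Sbsn start, 89 bases before this Dmkn start and 81 bases before the Krtdap start, and it also occurred in the windows of the other 2 annotated Dmkn starts. Of 32851 mouse promoter windows of this length, 7.81% held it on either strand. TATAAA occurred in the Krtdap window alone, 30 bases before the start, against 13.6% of all windows, and the E-box letters CACGTG occurred in none of these windows, against 7.15%. The patterns were picked after the windows had been read, and a match describes letters and not a bound factor. The window of Dact2 held none of the 3 patterns.

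The 3 genes were found together in the same cells. Among fibroblasts in which Krtdap and Dmkn both reached 2 UMIs, Sbsn did so in 99.6%, against 33.7% of those in which neither did. Dmkn reached 2 UMIs in 62.9% of the cells that had both others and in 0.321% of the cells that had neither, and Krtdap in 83.1% and 1.17%. Sbsn was therefore the broadest of the 3 and Dmkn the narrowest. By the number of genes at the threshold, 5590 fibroblasts had 0, 2931 had 1, 1595 had 2 and 2003 had all 3. The median member held 13 UMIs of Krtdap, 9 of Dmkn and 34 of Sbsn, at a median depth of 23468 UMIs, and the median other fibroblast held 0, 0 and 1 at 21798 UMIs.

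The threshold did not fall in a gap of the UMI counts. The 317 members whose lowest gene was exactly at 2 UMIs had medians of 5, 2 and 20 UMIs of Krtdap, Dmkn and Sbsn, and the 487 fibroblasts just outside, with exactly 1, had 3, 1 and 15. In immune cells (Ptprc at least 2 UMIs, Pdgfra 0), where free RNA would be counted as well, 1 of 2775 cells passed the 3-gene threshold (95% exact binomial interval 0.000912% to 0.201%, counting error only), at a median depth of 12161 UMIs. Members held a median of 76.8% of the Krtdap UMIs of a library's fibroblasts, 88.6% of the Dmkn UMIs and 59.7% of the Sbsn UMIs over 17 libraries. Pooled over libraries, members held 761 CPM (UMIs per 1000000 UMIs of the population) of Krtdap, 600 of Dmkn and 1662 of Sbsn, other fibroblasts 50.05, 15.8 and 243, and immune cells 0.592, 4.87 and 6.05.

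Many markers of epidermal keratinocytes were at 0 in members, and of the 2 abundant enough to be tested, Krt10 was higher and Jup lower in members than in other fibroblasts. Of 34 markers, 14 had no UMI in any member, among them Krt14, Krt15, Krt17, Flg, Ivl and Epcam. The other fibroblasts had 4, 5, 2, 0, 2 and 13 UMIs of these genes in 222143968 UMIs, against 48473622 UMIs in members. The zeros therefore do not set members apart. Krt5 and Krt14, which the gate limits, had 1 UMI in all members together. The most abundant was Krt10, a keratin of suprabasal cells, at 37.2 CPM in members and 29.5 CPM in other fibroblasts (log2 fold change 0.35 ± 0.046, adjusted p = 6.33e-07, edgeR, higher in 17 of 17 libraries). Jup, which encodes the junction protein plakoglobin, was at 20.5 and 28.0 CPM (-0.55 ± 0.053, adjusted p = 1.88e-09, edgeR, lower in 17 of 17 libraries). The list summed to a median of 64.5 CPM in members (46.7 to 82.5 over the 18 libraries) and 62.5 CPM in other fibroblasts (49.8 to 76.1), and was higher in members in 11 libraries.

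Markers of other cell types varied between libraries. Immune markers summed to a median of 18.7 CPM in members and 26.2 CPM in other fibroblasts, with 3 of 15 at 0 UMIs in members (Cd3e, Nkg7 and Ptprc, which the gate sets to 0) and Cd74 the most abundant at 5.45 CPM. Endothelial markers summed to 3.19 and 4.19 CPM, with Kdr the most abundant at 2.12 CPM and 2 of 10 at 0 UMIs. Mural cell markers summed to 15.6 and 53.4 CPM and were lower in members in all 18 libraries, with Des the most abundant at 17.4 CPM and 3 of 10 at 0 UMIs. Of 4 immune genes tested, 3 were called lower in members and 0 higher, led by Csf1r (log2 fold change -1.52 ± 0.21). All 3 mural genes tested were called lower, led by Abcc9 (-3.29 ± 0.16), where 15.8% of all genes were lower. The 1 endothelial gene tested was not called. Muscle markers had medians of 36.8 and 54.7 CPM but reached 648 CPM in the members of a single library, led by Acta1. Red blood cell markers had medians of 283 and 732 CPM but were higher in members when pooled, with their most abundant gene Hbb-bs at 552 and 358 CPM, and reached 6060 CPM in the members of ZT2 replicate 1 against 1298 CPM in its other fibroblasts. None of the muscle or red blood cell genes tested was called between the populations, but pooled Acta1 was at 51.1 CPM in members and 19.5 CPM in other fibroblasts, and against the other cells with Pi16, Sema3e and Cd248, 2 of 7 muscle genes, Tnnc2 and Mylpf, were called higher in members (median log2 fold change 0.44). Schwann cell and melanocyte markers summed to 58.6 and 48.7 CPM and were higher in members in 16 of 18 libraries, a sum carried by Mbp at 58.4 CPM in members. The 1 gene of that list tested was called higher (log2 fold change 0.54). The part of these transcripts in the other results was not tested.

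Some libraries stood apart. ZT6 replicate 2 held 5 members and was left out of the gene fits of members and of other fibroblasts, which used 17 libraries, but not of those over all fibroblasts, which used 18. In ZT14 replicate 1 members were 44.3% of the fibroblasts, and the chemokine gene Cxcl5 was at 138 CPM in its members and 167 CPM in its other fibroblasts, against 0 and at most 0.0965 CPM in the other libraries. Dmkn in its other fibroblasts was 138 CPM, against 3.20 to 25.8 CPM elsewhere, and Timp1 was 215 CPM in its members against at most 21.9 CPM. The mean rank correlation of its other fibroblasts with those of the other libraries was 0.911 over 5620 genes, against 0.947 to 0.965. Leaving it out gave 3432 called genes between members and other fibroblasts. The libraries shared 164 barcode sequences, and 20 members carried one of them.

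Members were compared with the other fibroblasts of the same library, with UMIs summed per library and population and the library as a block (edgeR's quasi-likelihood test, Benjamini-Hochberg adjustment over 11173 genes). Il34, Dact2, Bmp3, Il33, Jag1, Igfbp5, Ptgs1 and Itgb7 were higher in members, and members nearly lacked Cilp, Cxcl14, Mfap4, Col15a1, Mgp and Icam1, which were also low, from 1.31 CPM for Mfap4 to 5.48 CPM for Mgp, in all 7421 cells with Pi16, Sema3e and Cd248, members among them. At an adjusted p under 0.05, 3450 genes (30.9%) differed, 1681 higher (15.0%) and 1769 lower (15.8%) in members. Most of the differences were small, since 97 of the higher and 267 of the lower genes changed at least 2-fold, and 13 and 85 at least 4-fold. The library values of the populations did not overlap for 28 of the tested genes that were higher in members (0.251%) and for 60 that were lower (0.537%). The median log2 fold change over all genes tested was 0.0083.

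Il34 encodes interleukin-34, a ligand of the CSF1 receptor that macrophages and Langerhans cells depend on. It was at 27.7, 45.2 and 89.6 CPM (lowest, median and highest of 17 libraries) in members and at 1.57, 6.02 and 16.3 CPM in other fibroblasts, and the ranges did not overlap. Dact2, an intracellular regulator of Wnt and TGF-beta signalling, was at 74.4, 216 and 313 CPM in members and 17.0, 51.5 and 88.0 CPM in other fibroblasts. Bmp3, a BMP family ligand that restrains signalling by other BMPs, was at 121, 184 and 237 CPM against 33.2, 54.4 and 95.1 CPM. These 3 genes had been picked as markers of the cells from the same libraries, so their log2 fold changes of 2.87 ± 0.12 (SE) for Il34, 1.92 ± 0.051 for Dact2 and 1.64 ± 0.058 for Bmp3 are given as a description. Each was higher in members in all 17 libraries.

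The other genes with the largest increases by the naming rule (called, in the same direction in every library, mean of at least 50 CPM in members) are given next. Ptgs1, the constitutive cyclooxygenase of prostaglandin synthesis, was at 30.5, 79.3 and 107 CPM in members and 10.2, 20.3 and 27.2 CPM in other fibroblasts (log2 fold change 1.89 ± 0.054, adjusted p = 2.06e-20, edgeR). Its ranges did not overlap. Itgb7, an integrin subunit best known from lymphocytes, was at 54.02, 115 and 199 CPM against 18.8, 38.1 and 75.8 CPM, ranges that overlapped (1.53 ± 0.041, adjusted p = 6.58e-21, edgeR). Igfbp5, a secreted IGF-binding protein, was at 3266, 5605 and 6943 CPM against 1357, 2161 and 2591 CPM (1.31 ± 0.040, adjusted p = 6.88e-20, edgeR), again without overlap.

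Il33, an alarmin of the IL-1 family, rose from a median of 96.3 to 218 CPM (log2 fold change 1.15 ± 0.048). Ccn3, a matricellular protein, rose by 1.55 ± 0.059, the aldo-keto reductase gene Akr1b8 by 1.38 ± 0.068 and Cd200, which encodes a ligand that restrains myeloid cells, by 1.33 ± 0.054. The Notch ligand gene Jag1 rose by 1.21 ± 0.058, Negr1, a cell adhesion molecule, by 1.17 ± 0.055, and Ntn4, a netrin of basement membranes, by 1.16 ± 0.049. These values are log2 fold changes with SE, all in 17 of 17 libraries, and the largest adjusted p among them was 2.15e-15, for Akr1b8 (edgeR).

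Among the lower genes, Cilp, a matrix protein of cartilage and dense connective tissue, was at 0, 0 and 4.06 CPM in members and 20.2, 84.7 and 381 CPM in other fibroblasts (log2 fold change -7.34 ± 0.23, adjusted p = 8.76e-20, edgeR). Cxcl14, a chemokine, was at 0, 1.38 and 7.95 CPM against 12.3, 63.5 and 240 CPM (-5.25 ± 0.15, adjusted p = 2.89e-20, edgeR). Mfap4, a protein of elastic microfibrils, was at 0, 0.484 and 17.9 CPM against 23.4, 74.5 and 211 CPM (-5.13 ± 0.28, adjusted p = 1.40e-14, edgeR). None of these genes overlapped between the populations, and members were at or close to 0 in most libraries. The size of such a change is uncertain: without ZT2 replicate 3, where members had the highest value of both genes, it was -8.45 for Cilp and -6.66 for Mfap4.

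Col15a1, a collagen of basement membrane zones, had a median of 2.58 CPM in members and 54.7 CPM in other fibroblasts, Mgp, an inhibitor of calcification, 1.67 and 80.5 CPM, and Icam1, an adhesion receptor for leukocytes, 1.65 and 76.6 CPM. Gas6, a ligand of TAM receptors, had 11.7 and 168 CPM, the proteoglycan gene Bgn 17.0 and 177 CPM, the lipid carrier gene Apoe 11.9 and 104 CPM and F3, which encodes tissue factor, 13.3 and 79.4 CPM. Igfbp7 and Igfbp3, further IGF-binding proteins, had 39.2 and 246 CPM and 53.8 and 342 CPM, Tgfbi, a matrix protein induced by TGF-beta, 43.6 and 281 CPM, and Inmt, an amine methyltransferase, 85.4 and 382 CPM. All 11 were lower in members in 17 of 17 libraries, with log2 fold changes from -4.36 ± 0.14 for Col15a1 to -2.46 ± 0.14 for F3. None of the 14 genes with the largest change in each direction by the naming rule lost its call when any 1 library was left out. The largest adjusted p among them was then 9.29e-13, for Igfbp3 (edgeR). These genes had been picked for large, called changes in the same libraries, so that they stayed called is a description and not an independent check.

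**Figure D1:**
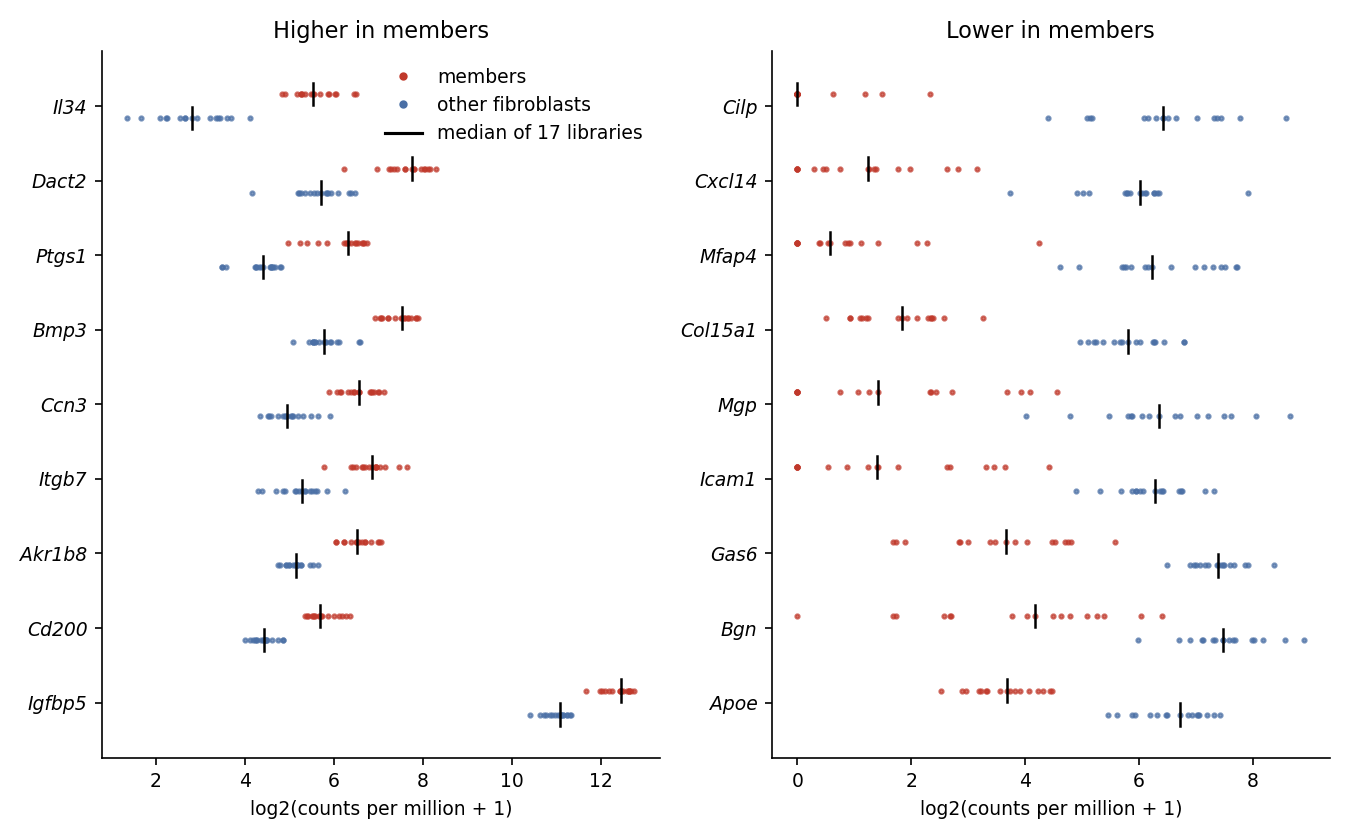
Levels of the 9 genes with the largest increases (left) and the 9 with the largest decreases (right) by the naming rule, as log2(CPM + 1), with 1 point per library for members (red) and other fibroblasts (blue) and a black bar at the median of 17 libraries. Members sit to the right of the other fibroblasts at the left panel's genes and to the left at the right panel's genes, where several members' points lie at 0.

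The number of called genes was lower after thinning and without the library block. After every fibroblast was thinned to 10000 UMIs (1047 shallower cells left out) and the 3-gene rule applied again, which left 1359 members, 1922 of the 9386 genes then tested were called. Depth, cells, members and genes tested changed together there, so their parts cannot be told apart. Without the library block 2099 of 11173 were called. The 28 genes with the largest changes kept their direction and their call in both. They had been picked for large changes in the same cells, so this too is a description.

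Levels also followed the amount of the 3 genes within and outside the members, which is a description since the strata are cut from the selecting genes. Il34 was also at 38.6 CPM in the 59 cells with Cilp, Thbs4 and Fmod. Il34 averaged 5.6 CPM where the lowest of the 3 genes was at 0 UMIs (9629 cells), 25.8 CPM at 1 UMI, 33.7 CPM at 2 to 3, 32.8 CPM at 4 to 7, 56.7 CPM at 8 to 15 and 90.4 CPM at 16 or more (423 cells). Dact2 went from 49.1 to 322 CPM and Ptgs1 from 18.1 to 121 CPM between the same ends. Inmt fell by steps from 411 CPM through 128 CPM at 2 to 3 UMIs to 18.4 CPM at 16 or more. Apoe dropped in a single step, from 109 CPM at 0 UMIs to 12.6 CPM at 1 UMI and 10.7 CPM at 16 or more, and Col15a1 did likewise (67.4, 3.19 and 2.80 CPM).

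**Figure D2:**
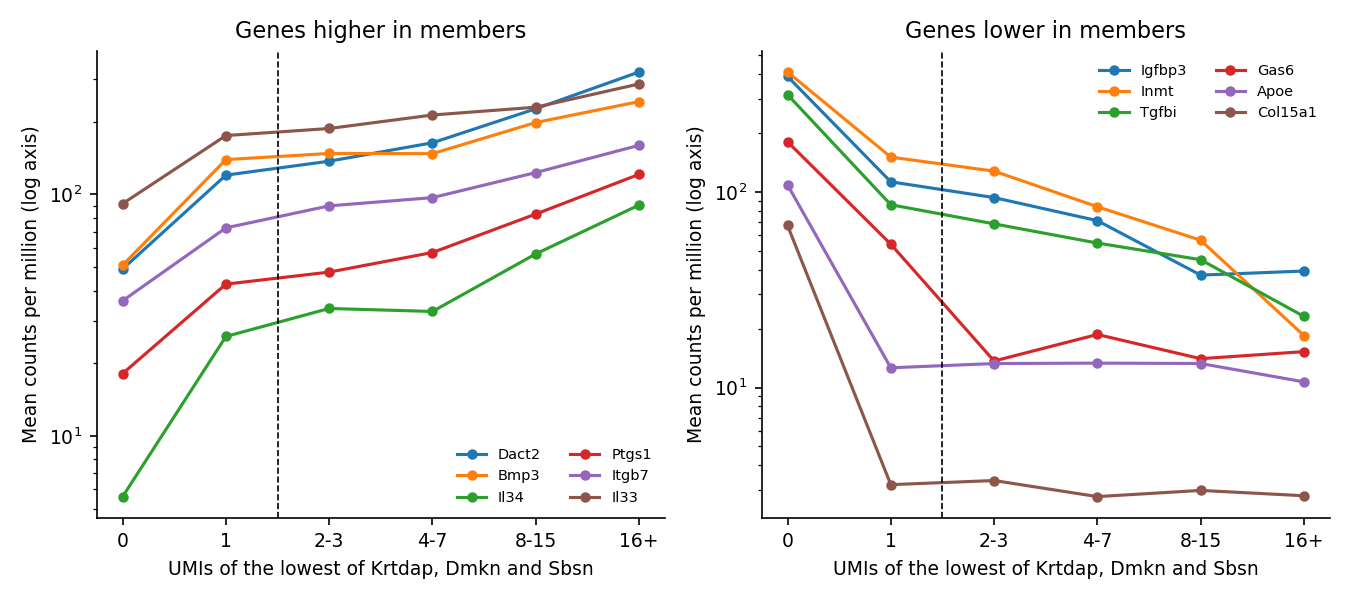
Mean CPM over libraries (log axis) of 6 genes higher in members (left) and 6 lower (right) against the UMIs of the lowest of Krtdap, Dmkn and Sbsn in a cell, where the dashed line marks the threshold of the rule. Il34 and Dact2 climb on both sides of the line, whereas Apoe and Col15a1 drop between 0 and 1 UMI and stay level after it.

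Among the lists with at least 7 tested genes, those of fascia and adventitia were most often higher. Of 14 genes tested, 11 were higher in members and 0 lower (median log2 fold change 0.53), where 15.0% of all 11173 genes were higher and 15.8% lower (median 0.0083). Cd55, which encodes an inhibitor of complement activation, averaged 746 ± 110 CPM (SD, n = 17) in members and 372 ± 55.1 CPM in other fibroblasts (0.94 ± 0.027), and the semaphorin gene Sema3c 1081 and 648 CPM (0.68 ± 0.028). Limch1 rose by 0.97 ± 0.046 and Efhd1 by 0.78 ± 0.027. Pi16, a secreted peptidase inhibitor that marks fascial and adventitial fibroblasts, was at 5737, 8150 and 10222 CPM in members and 2786, 5389 and 6894 CPM in other fibroblasts (0.54 ± 0.039, adjusted p = 4.67e-12, edgeR), and its ranges overlapped.

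Most members also fell in the larger population that carries Pi16, Sema3e and Cd248. Of the members, 1674 (83.6%) had at least 2 UMIs of each of these genes, as had 56.8% of the other fibroblasts, and members made up 22.6% of all such cells. By contrast 55 of 1706 cells with Sult1e1, Igfbp3 and Inmt were members, 0 of 334 with Cxcl14, Steap4 and Gdf10, which allows a share of up to 0.898%, 1 of 357 with Cthrc1 and Tnmd and 0 of 59 with Cilp, Thbs4 and Fmod, which allows up to 5.08% (each limit is 3 counts of the total and covers counting error only). Gdf10 (-2.05 ± 0.11), Steap4 (-2.86 ± 0.19) and Tnmd (-6.07 ± 0.19, or -6.68 without ZT18 replicate 3, log2 fold changes) were lower in members.

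Members were therefore also set against the other Pi16 Sema3e Cd248 cells alone, a comparison added after the data had been seen. Of 10771 genes, 2190 (20.3%) were called, 1063 higher (9.87%) and 1127 lower (10.5%) in members. Il34 (2.71 ± 0.11), Ptgs1 (1.63 ± 0.057), Dact2 (1.56 ± 0.055), Ccn3 (1.37 ± 0.061), Itgb7 (1.17 ± 0.039) and Igfbp5 (1.09 ± 0.040) stayed higher, and Inmt (-2.19 ± 0.11), Igfbp3 (-2.09 ± 0.16), Tgfbi (-1.57 ± 0.062) and Sult1e1 (-1.41 ± 0.078) stayed lower. Bgn (-0.16 ± 0.14, adjusted p = 0.511), Icam1 (-0.34 ± 0.32, adjusted p = 0.537) and F3 (0.26 ± 0.16, adjusted p = 0.302) were no longer called (edgeR), and Apoe went from -2.93 to -0.30 ± 0.088. Other decreases were still called but smaller. Col15a1 went from -4.36 to -1.06 ± 0.21, Gas6 from -3.43 to -0.91 ± 0.15 and Igfbp7 from -2.68 to -1.13 ± 0.080. Cilp, Cxcl14, Mfap4 and Mgp were too low in these cells to be tested. In fascia and adventitia genes, 7 of the 11 then tested were higher and 1 lower. The median log2 fold change went from -0.61 to -0.078 in cytokines and chemokines (4 of 22 higher, 7 lower), from -0.69 to -0.20 in immediate early and heat shock genes (2 of 23 higher, 11 lower), from -0.47 to -0.28 in collagen chains (2 of 20 higher, 13 lower) and from -0.30 to -0.19 in complement genes (1 of 12 higher, 9 lower).

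Matrix genes were mostly lower in members than in the other fibroblasts. Of 20 collagen chains tested, 2 were higher and 16 lower in members (median log2 fold change -0.47), where 15.0% of all genes were higher and 15.8% lower. The 2 were Col12a1 (0.77 ± 0.093) and Col14a1 (0.29 ± 0.027), which encode collagens that associate with fibrils. The basement membrane chains Col4a1 (-1.41 ± 0.071), Col4a2 (-1.80 ± 0.080) and Col4a3 (-2.07 ± 0.14) fell. Of 51 matrix proteoglycans and glycoproteins, 12 were higher and 31 lower (median -0.22). Mfap5 (0.78 ± 0.021) and Fbn1 (0.62 ± 0.032), both components of microfibrils, and Lamb1 (0.72 ± 0.043), a laminin chain, were higher. Sparcl1 (-6.39 ± 0.18) and Fmod (-4.94 ± 0.40, or -7.77 without ZT2 replicate 3) were lower. Against the other Pi16 Sema3e Cd248 cells, 15 of 45 proteoglycans and glycoproteins were higher and 21 lower (median -0.082). In that comparison 9.87% of all genes were higher and 10.5% lower.

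Complement and acute phase genes were lower in 13 of 15 tested and higher in 1 (median -0.30), beside 15.8% and 15.0% of all genes. C4b (-1.65 ± 0.12), C2 (-1.64 ± 0.094) and C7 (-1.01 ± 0.056), components of the complement cascade, fell, and the gene that rose was Cd55, named above with the fascia list. Of 23 cytokines and chemokines, 5 were higher and 13 lower (median -0.61). Beside Il34 and Il33, Tnfrsf11b, which encodes the RANKL decoy receptor osteoprotegerin, rose by 2.47 ± 0.21, and Cxcl12 (-2.08 ± 0.11), the ligand of CXCR4, Kitl (-1.57 ± 0.16) and Il6 (-1.28 ± 0.23) fell.

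Wnt and BMP genes moved in both directions. Of 35 Wnt genes tested, 10 were higher and 14 lower (median -0.080), and of 44 BMP and TGF-beta genes, 11 were higher and 20 lower (median -0.15), where 15.0% of all genes were higher and 15.8% lower. Among the Wnt genes, the ligand gene Wnt16 (1.44 ± 0.16), the receptor gene Fzd8 (0.82 ± 0.12) and the R-spondin gene Rspo3 (0.74 ± 0.045) were higher and Lgr5 (-4.36 ± 0.30, or -5.67 without ZT2 replicate 3), an R-spondin receptor, Rspo2 (-2.22 ± 0.20) and Rspo1 (-1.36 ± 0.14) lower. Bmp6 (1.53 ± 0.11), Bmp2 (0.51 ± 0.11) and Bmp7 (0.42 ± 0.040), BMP ligands like Bmp3, were higher, and the ligand gene Gdf15 (-5.08 ± 0.25) and Ltbp4 (-1.89 ± 0.096), which binds latent TGF-beta, were lower. When members were set against the other Pi16 Sema3e Cd248 cells, 12 of 33 Wnt genes were higher and 11 lower (median -0.026). Of 41 BMP and TGF-beta genes, 11 were higher and 11 lower there (median -0.040), where 9.87% of all genes were higher and 10.5% lower.

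Of 30 fibroblast transcription factors, 11 were higher and 17 lower (median -0.16), beside 15.0% and 15.8% of all genes, with Foxp2 (0.84 ± 0.10), Zic1 (0.77 ± 0.066) and Creb5 (0.41 ± 0.028) among the higher and Klf5 (-1.99 ± 0.14) and Nr2f2 (-0.97 ± 0.12) among the lower. The regulators of epidermal differentiation in that list (Grhl1, Grhl3, Ovol1, Trp63 and Zfp750) were too low to be tested. Immediate early and heat shock genes, which respond to stress and can respond to tissue dissociation, were lower in 17 of 24 tested and higher in 1 (median -0.69), beside the same shares of all genes. Btg2 (-1.98 ± 0.14) and Zfp36 (-1.48 ± 0.13), both early response genes, fell, and Hspb1, a small heat shock protein, rose (0.40 ± 0.096). The list summed to a median of 12883 CPM in members and 18438 CPM in other fibroblasts, led by Fos, and the part of this difference in the other results was not tested. Of 28 transcription factors tested against the other Pi16 Sema3e Cd248 cells, 6 were higher and 8 lower (median -0.0083). In that comparison 9.87% of all genes were higher and 10.5% lower.

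Small lists are given beside the 15.0% higher and 15.8% lower of all genes. Of 11 reticular and lower dermis genes 6 were higher, led by Thy1 (1.06 ± 0.096), and 4 lower, among them Gpx3 (-1.19 ± 0.037), and of 8 papillary genes 2 were higher and 4 lower. Of 8 general fibroblast markers tested 2 were higher and 6 lower, and Dcn, which encodes the proteoglycan decorin, averaged 11950 CPM in members and 13965 CPM in other fibroblasts (-0.29 ± 0.018). Of 11 interferon response genes 4 were higher and 1 lower, at most 0.48 in size. Of 10 cell cycle genes 4 were higher, but Stmn1 (1.25 ± 0.33) and Top2a (1.11 ± 0.40), the 2 with the largest changes, were higher in only 11 and 9 of 17 libraries and were not called by DESeq2. For the 8 papillary genes, 3 were higher and 3 lower against the other Pi16 Sema3e Cd248 cells. Their median log2 fold change was -0.17 against the other fibroblasts and 0.099 there.

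**Figure D3:**
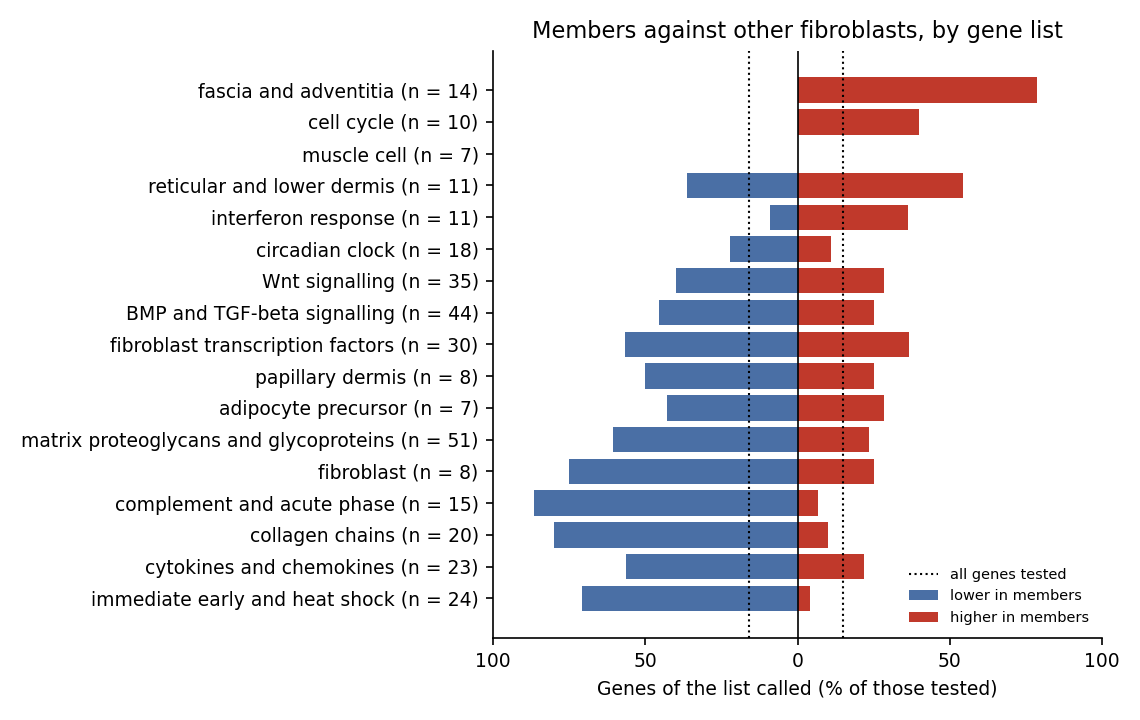
Share of the tested genes of each list with at least 7 tested genes that was called higher (red, to the right) or lower (blue, to the left) in members, where dotted lines mark the shares over all genes (15.0% higher, 15.8% lower). Fascia and adventitia genes are called in the higher direction alone, and complement, collagen and immediate early genes mostly in the lower direction.

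The genes next to Krtdap, Dmkn and Sbsn were looked at in the same fit. Within 300 kb of the span, 49 genes of the annotation were in the matrices, with Krtdap, Dmkn and Sbsn counted among them. These selecting genes were left out of the test, and 16 of the neighbours were high enough to be tested. Of these, 0 were higher, against 15.0% of all genes tested, and 1, against 15.8%, was lower, counts too small to set the 16 apart. The lower gene was Fxyd5, which encodes a modulator of cell adhesion (-0.30 ± 0.079, adjusted p = 0.00416, edgeR), with 4 libraries going the other way and a reversed sign against the other Pi16 Sema3e Cd248 cells (0.67 ± 0.10). The median log2 fold change of the 16 was -0.0026. Usf2, which encodes a bHLH transcription factor, was at a median of 53.5 CPM in members and 48.4 CPM in other fibroblasts. It was not called (log2 fold change -0.0014 ± 0.040, adjusted p = 0.990, edgeR) and was higher in members in 9 of 17 libraries.

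The share of fibroblasts that were members varied with time of day. It was 10.5%, 18.8% and 14.3% in replicates 1 to 3 at ZT2, 3.66%, 2.79% and 23.2% at ZT6, 11.9%, 20.1% and 8.76% at ZT10, 44.3%, 27.3% and 19.1% at ZT14, 24.5%, 24.8% and 26.2% at ZT18, and 6.29%, 11.5% and 8.73% at ZT22. The libraries of ZT14 and ZT18, in the dark, were the highest apart from ZT6 replicate 3 and ZT10 replicate 2, and the 3 libraries of ZT22 and those of ZT18 did not overlap. The means were 25.2% ± 0.90 (SD, n = 3) at ZT18 and 8.83% ± 2.59 at ZT22. ZT22, which is also in the dark, had the lowest mean of the 6 zeitgeber times.

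A 24 h cosine fitted to the 18 shares had a mean level of 17.0%, an amplitude of 9.09 percentage points and a peak at ZT15.3 (permutation test of the amplitude, 100000 draws, p = 0.0171). After thinning each fibroblast to 10000 UMIs the amplitude was 6.83 points with a peak at ZT15.7 (permutation p = 0.0254). Without ZT14 replicate 1 it was 6.80 points (permutation p = 0.0444), and over the libraries left out in turn p ran from 0.00481 to 0.0444. As a share of all cells past the quality filter the amplitude was 5.14 points (permutation p = 0.0270). A larger share of such cells and a higher level of the 3 genes in a fixed number of cells cannot be told apart by this count.

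**Figure D4:**
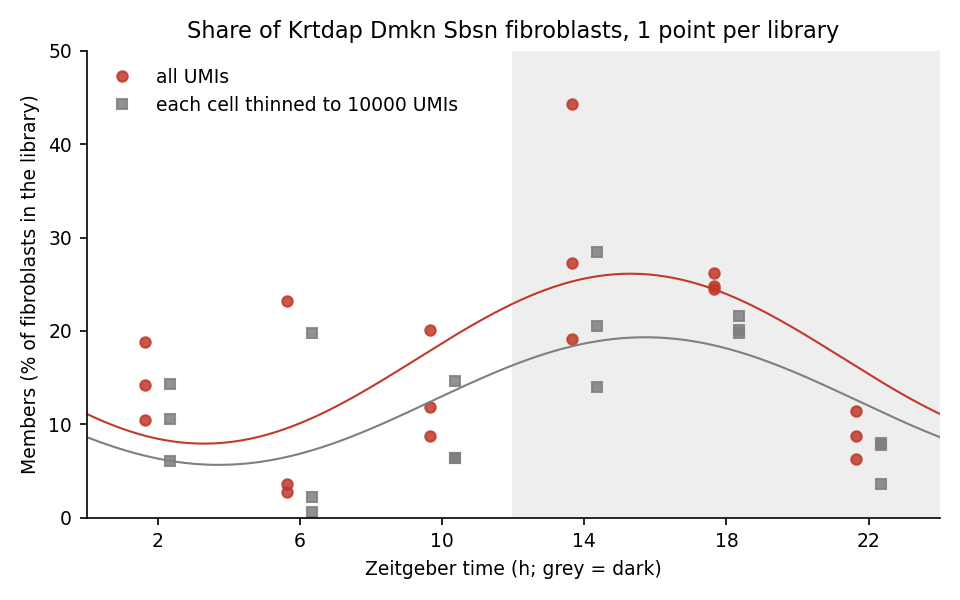
Members as a percentage of the fibroblasts of each library against zeitgeber time, from all UMIs (red circles) and after thinning each cell to 10000 UMIs (grey squares), with the fitted 24 h cosines and the dark phase in grey. The ZT14 and ZT18 libraries lie between 19.1% and 44.3%, and ZT6 has 1 library at 23.2% far from the other 2.

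Within members, where the rule itself keeps the 3 genes from low values, the fitted 24 h log2 amplitudes were 0.11 for Krtdap, 0.17 for Dmkn and 0.083 for Sbsn, given as a description. The rhythm of the 3 genes was tested in sums over all fibroblasts, which the 3-gene rule did not select. There the amplitudes were 0.55 for Krtdap, 0.82 for Dmkn and 0.42 for Sbsn with peaks at ZT16.1, ZT14.6 and ZT15.8, but none was called (adjusted p = 0.270, 0.160 and 0.247, edgeR), where 1673 of 12821 genes (13.0%) were. Without ZT14 replicate 1 the amplitude of Dmkn was 0.51.

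Il34 over all fibroblasts was called at an amplitude of 0.86 and a peak at ZT15.2 (adjusted p = 0.0419, edgeR). It went from 9.52 CPM or less in the 3 libraries of ZT22 to between 15.6 and 33.7 CPM at ZT18. At ZT6 it was at 2.68, 2.25 and 24.7 CPM in replicates 1 to 3. When libraries were left out in turn, the adjusted p ran from 0.00285 (without ZT6 replicate 3) to 0.0859 and stayed under 0.05 in 5 of 18 cases. In members alone its amplitude was 0.34 (adjusted p = 0.276), in other fibroblasts 0.85 (adjusted p = 0.0191), and the difference between the populations was not called (adjusted p = 0.769).

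The clock itself ran in members. In members 354 of 10799 genes (3.28%) were called rhythmic, and in the other fibroblasts of the same libraries 1251 of 12743 (9.82%), from sums over more cells. Of 19 clock genes tested, 16 were called in members and the same 16 in the other fibroblasts, while Cry2, Rora and Rorb were called in neither. Dbp, a PAR bZIP factor driven by the clock, had the smallest adjusted p in members (8.47e-07, edgeR), with a log2 amplitude of 2.76 and a peak at ZT9.41. Arntl (2.25, peak ZT22.5) and Nfil3 (2.14, peak ZT22.1) peaked near the end of the night and Per2 (1.68, peak ZT13.7) and Cry1 (1.74, peak ZT18.6) in the dark. Outside the clock list, Tspan4, a tetraspanin, and Sash1, a scaffold protein, were among the 6 smallest adjusted p values, with amplitudes of 1.00 and 0.65.

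Across these 16 genes the fitted peak came earlier in members than in the other fibroblasts for 14, with a median difference of -0.63 h. Over the 289 genes called in both populations it came earlier for 176, with a median difference of -0.21 h in the same edgeR fits. In fits to log2(CPM + 1) it came earlier for 15 of the 16 clock genes, with a median difference of -0.55 h. The genes share the same libraries and clock, so these counts are a description. In the test of the difference itself 1 of 12614 genes (0.00793%) was called, Nr1d1, which encodes the repressor REV-ERBalpha (adjusted p = 0.00511, edgeR), and 551 genes had an unadjusted p under 0.05.

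At ZT2 Nr1d1 stood at 40.6, 73.6 and 50.2 CPM in the members of replicates 1 to 3 and at 29.4, 39.4 and 29.5 CPM in the other fibroblasts, so it was higher in members in each library of that time. At ZT10 it stood at 142, 109 and 115 CPM against 144, 121 and 127 CPM, lower in members in each. Its peak was at ZT7.65 in members and ZT8.17 in other fibroblasts in the edgeR fits. In separate fits to log2(CPM + 1) the peak in members minus that in other fibroblasts was -0.40 h ± 0.14 (jackknife SE over 17 libraries). Without ZT2 replicate 2 the adjusted p of the difference was 0.160, and without ZT2 replicate 3 it was 0.134.

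**Figure D5:**
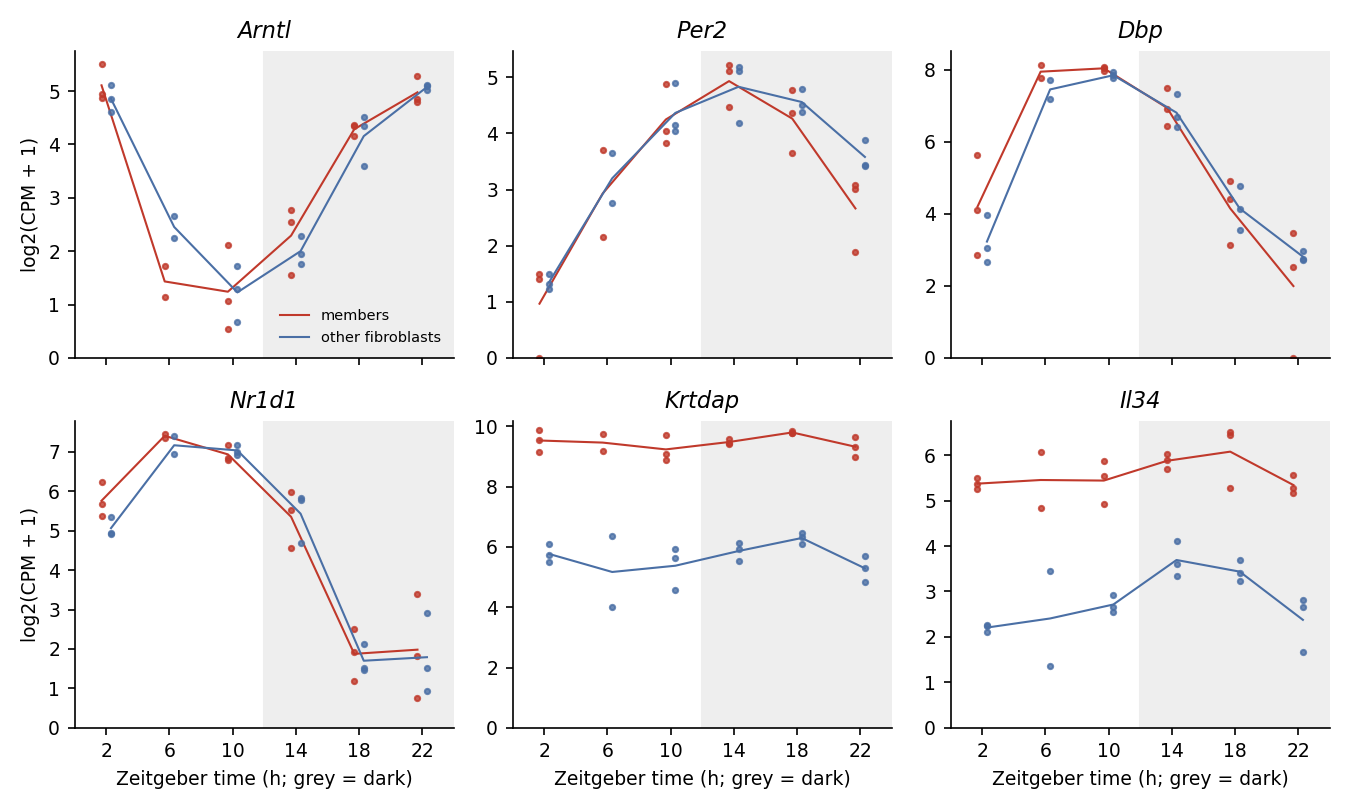
log2(CPM + 1) against zeitgeber time for 4 clock genes, Krtdap and Il34 in members (red) and other fibroblasts (blue), with 1 point per library (2 libraries at ZT6), lines through the means and the dark phase in grey. The clock genes of both populations run together, Nr1d1 and Dbp are already higher in members at ZT2, and Krtdap, a selecting gene, has a fitted log2 amplitude of 0.11 in members.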

How the data were processed

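Per the labels and the study's methods, the authors made 10x 3' v3 libraries, sequenced them on a NovaSeq instrument and counted UMIs with Cell Ranger 3.1.0 against mm10. The deposited matrices hold raw UMI counts per gene and barcode, with 4850221 to 40827442 UMIs per library. Per the study's methods, a mouse was picked at random for each collection, so p-values measure the spread between mice and their libraries. The study's quality limits (850 to 7800 genes, under 13% mitochondrial UMIs) were applied, then the fibroblast gate and the 3-gene rule. No doublet caller was run, and cells over 40000 UMIs were left out as an alternative. The members and gene lists were chosen with earlier results of these data known.

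Counts were summed per library and population in libraries with at least 10 members (17 libraries), or over all fibroblasts (18 libraries), and tested with edgeR 4.0.16 (TMM, filterByExpr, quasi-likelihood) in R 4.3.3, with the library as a block for members against other fibroblasts and sine and cosine terms of a 24 h period for rhythms. Krtdap, Dmkn, Sbsn and the fibroblast gate genes were left out of the tests between populations. Called means a Benjamini-Hochberg adjusted p under 0.05. CPM are UMIs per 1000000 UMIs of the summed population, without the TMM factors that the tests use. Differences of rhythm were tested as the interaction of population and time. The study's JTK_Cycle test of rhythms was not used here. Tables were made in Python 3.11.15.

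Named were the 14 genes with the largest change in each direction that were called, had 1 sign in every library and a mean of at least 50 CPM where higher, the given markers, at most 4 called genes per list and direction, tested genes within 300 kb of the locus, the clock list and the 6 smallest adjusted p values of each rhythm test. Cxcl5, Timp1 and the dominant marker of each cell type were chosen after their values were seen. Some genes that met the rule are not reported here. On simulated counts for members against other fibroblasts (11111 genes), 189 of 200 genes changed by 1 on the log2 scale were recovered with 9 false calls. For the rhythm in members (10695 genes) 178 of 200 were recovered with 15 false calls, and for the difference in rhythm (11173 genes) 168 of 200 with 8. In the simulated difference the genes had a log2 amplitude of 1 in members and no rhythm in the other fibroblasts. Smaller differences between shared rhythms, such as a shift of the peak, were not simulated, so their recovery is not known. Alternatives were DESeq2 1.42.0, no filter on low counts, other thresholds of the rule, thinning, no library block, a replicate block and leaving out each library.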

Additional observations from a re-analysis of the deposited data

Results flagged for a closer look

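Nr1d1, the gene of the clock repressor REV-ERBalpha, was the 1 gene whose 24 h rhythm differed between members and other fibroblasts in the test of the difference itself (edgeR, adjusted p = 0.00511). The adjusted p was 0.0349 with DESeq2 and 0.00823 with a replicate block. It stayed under 0.05 in 15 of 17 cases when libraries were left out in turn, the exceptions being ZT2 replicate 2 (0.160) and ZT2 replicate 3 (0.134). Its log2 amplitude was 2.64 in members and 3.08 in other fibroblasts in the edgeR fits, but the difference in amplitude was -0.050 ± 0.10 (jackknife SE) in fits to log2(CPM + 1). Nr1d1 was close to 0 at its trough. In members it was at 1.29 to 4.68 CPM at ZT18 and 0.680 to 9.47 CPM at ZT22. In other fibroblasts it was at 1.76 to 3.38 and 0.917 to 6.56 CPM. The part of these low counts in the amplitudes was not tested. Groups of 3 libraries are too small for the test of single outlying samples used here.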

How the results depend on the processing

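The count of genes called between members and other fibroblasts (3450) was 2099 without the library block, 1922 after thinning to 10000 UMIs and 2190 against the Pi16 Sema3e Cd248 cells alone, a comparison added after seeing the data, and ran from 3157 to 3432 when libraries were left out in turn. Rhythmic genes in members (354) were 586 with DESeq2 and 652 with no filter on low counts, and ran from 236 without ZT14 replicate 2 to 414 without ZT14 replicate 1. In the other fibroblasts (1251) DESeq2 called 1995. Genes with a different rhythm (1) were 164 with no filter on low counts, 3 at a threshold of 4 UMIs and 2 without cells over 40000 UMIs, and ran from 0 without ZT2 replicate 2 or ZT2 replicate 3 to 6 without ZT2 replicate 1. The share of members kept its direction and its side of the threshold in all alternatives run, with amplitudes from 6.80 to 10.5 points when libraries were left out. Over all fibroblasts, the leave-one-out amplitudes ran from 0.46 to 0.83 for Krtdap, 0.51 to 1.08 for Dmkn and 0.34 to 0.62 for Sbsn, none of them called, and Dmkn was called at 1.16 in the 18 sums of fibroblasts that are not members, an alternative added after seeing the data, where cells are cut on Dmkn itself and ZT14 replicate 1 stood at 138 CPM. In the 17 libraries of the other fits its amplitude there was 1.13 and was not called (adjusted p = 0.0534, edgeR). Against the Pi16 Sema3e Cd248 cells alone the log2 fold change changed sign and was called for Cthrc1 (0.77), Lum (0.22), Cd9 (0.37), Enpp2 (0.53) and Fxyd5 (0.67), and changed sign without a call for F3 (0.26), Ifit2 (-0.011), Ier3 (0.27) and Bhlhe40 (0.030). The cause of these changes was not tested.

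Replicate numbers mark the day of collection. Same-numbered libraries did not deviate together (median r of 0.0091 over 40 pairs, against -0.0080 over 80 pairs with different numbers), so the numbers were not taken to pair libraries. A replicate block gave 320 rhythmic genes in members, 1314 in other fibroblasts, 1 gene with a different rhythm, an amplitude of the share of 9.09 points (permutation p = 0.0272) and amplitudes of 0.62 for Krtdap, 0.92 for Dmkn and 0.48 for Sbsn over all fibroblasts. Depth limits what is reported of genes near 0 in members, where a fitted fold change depends on the prior count, and ZT6 replicate 2, with 5 members, gave no value in the gene fits of members and of other fibroblasts.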

Other observations

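Further lists rested on few tested genes, and their counts stand beside 15.0% higher and 15.8% lower over all genes tested. Of 7 adipocyte precursor genes 2 were higher and 3 lower in members, of 5 tendon and dense connective tissue genes 0 were higher and 4 lower, and of 3 dermal papilla and sheath genes 2 were higher and 1 lower. Of 4 perineurial and endoneurial genes 1 was higher and 2 were lower, and the higher one was Krt19, a simple epithelial keratin. Of 18 clock genes tested for level 2 were higher and 4 lower, shares near those over all genes. Only 2 tendon and dense connective tissue genes could be tested against the other Pi16 Sema3e Cd248 cells, with 1 higher and 0 lower. The median log2 fold change of that list was -4.94 against the other fibroblasts and 0.40 there.

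In ZT14 replicate 1, the library that stood apart, Il1rl1, which encodes the receptor of IL-33, was at 383 CPM in members and 91.6 CPM in other fibroblasts, against at most 21.1 and 27.5 CPM in the other libraries. Prg4, a lubricating proteoglycan, was at 128 and 169 CPM, against at most 35.1 and 17.6 CPM. These genes were chosen after their values were seen.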
